A study of Drosophila melanogaster with 3 samples.

Results

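Intergenic binding away from gene starts made up a small share of the sites of CrebB, a cAMP-responsive transcription factor and the CREB homologue of flies. The regions described here are the peaks whose summit lay outside every protein-coding transcript and over 500 bp from the transcription start site (TSS) of any protein-coding gene. The rule selected 470 of the 3915 peaks in the authors' reproducible (optimal) list, or 12.0% (95% Wilson interval 11.0% to 13.1%). The assay was chromatin immunoprecipitation followed by sequencing (ChIP-seq) on 3 biological replicates of whole Drosophila melanogaster embryos, 0 to 24 h old and of pooled sex, all in 1 group. Every replicate came from a stable transgenic line in which green fluorescent protein is fused to the C-terminus of CrebB, so the antibody target was the tagged protein and no untagged line was among the samples used here. Embryos of all these ages and all their tissues were pooled, so a peak cannot be assigned to a stage or cell type. A description field of the samples speaks of an input control, whereas the antibody and assay labels give an immunoprecipitation, and the libraries were treated here as ChIP. The number of reads behind the lists is unknown, and intervals below cover the counting of peaks only.

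CREB proteins are basic leucine zipper factors that bind the cAMP response element (CRE), whose full form is the palindrome TGACGTCA, and act with the coactivators CBP (nejire in flies) and CRTC. Binding sites between genes can lie in enhancers, in insulators bound by factors such as CTCF, or at the starts of non-coding genes. The segmentation and Hox genes of the embryo are well-known fly loci with long intergenic control regions.

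Sequences at selected summits are given first, because the results on motifs turn on them. They were read by coordinates from the RefSeq copy of Release 6 (dm6), are written 5′ to 3′ on the strand named, and show 14 bases on each side of the site, which stands in capitals. The only peak with a full CRE within 100 bp of its summit lay between LPCAT, a lysophospholipid acyltransferase, and Hex-A, a hexokinase (chrX:9581872-9581907, plus strand).
LPCAT and Hex-A, full CRE: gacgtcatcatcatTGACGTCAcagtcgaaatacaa
Of the 10 peaks with the CTCF core GGTGGCGC, 4 are shown, at ranks 31, 1079, 2040 and 3489 of the optimal list. They lay between jp (junctophilin, which couples the endoplasmic reticulum to the plasma membrane) and brwl (chr2L:9567470-9567505, minus), between ImpL2 (an insulin-binding secreted protein) and Sqor (chr3L:4239610-4239645, minus), between Cph and CG1958 (chrX:7242112-7242147, plus), and between osp and CG15282 (chr2L:14706324-14706359, minus).
jp and brwl, CTCF core: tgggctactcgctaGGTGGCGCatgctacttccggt
ImpL2 and Sqor, CTCF core: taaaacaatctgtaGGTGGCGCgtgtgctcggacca
Cph and CG1958, CTCF core: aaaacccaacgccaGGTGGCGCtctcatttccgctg
osp and CG15282, CTCF core: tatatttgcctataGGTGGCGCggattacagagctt
The word CACTGAGA, chosen after its counts at these summits were seen, is shown at 5 sites. They lay between slp1 and slp2, forkhead factors of segmentation (chr2L:3832569-3832604, minus), between CG9300 and the potassium channel gene Shal (chr3L:19560890-19560925, minus), on both strands of 1 peak beside the zinc finger gene noc (chr2L:14502690-14502725, plus, and chr2L:14502818-14502853, minus), and between NijA (ninjurin A) and CG43245 (chr3L:10735332-10735367, minus).
slp1 and slp2: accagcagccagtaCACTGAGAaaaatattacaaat
CG9300 and Shal: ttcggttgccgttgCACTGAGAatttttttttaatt
noc, plus strand: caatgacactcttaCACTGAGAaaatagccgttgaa
noc, minus strand: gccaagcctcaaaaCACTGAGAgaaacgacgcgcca
NijA and CG43245: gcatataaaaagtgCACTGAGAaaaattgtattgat

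The strongest intergenic peaks recurred among the first ranks of every replicate. Signal values have no stated scale, so peaks are compared by their rank within a list, rank 1 being the highest signal. The highest intergenic peak had rank 18 in the optimal list and lay between NimC3, a Nimrod-family gene of blood cells, and hll, an acyl-CoA synthetase gene (chr2L:14023902-14024343). Its rank was 15 in replicate 1, 10 in replicate 2 and 42 in replicate 3, each out of 30000 peaks. The next lay 27432 bp past the 3′ end of Su(z)2, a Polycomb-group RING finger gene, with ranks 18, 19 and 22 in replicates 1, 2 and 3. A peak between CG4004 and Paics, a gene of purine synthesis, had ranks 29, 30 and 13. The peak between jp and brwl whose CTCF core is printed above had ranks 24, 31 and 32. All 3 replicates placed each of these 4 peaks within their first 42 ranks.

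Support by a replicate is used here for a summit within 100 bp among that replicate's 3915 peaks of highest signal. Of the 470 intergenic peaks, 242 (51.5%, interval 47.0% to 56.0%) were supported by all 3 replicates, against 50% of all 3915 optimal peaks, so the intergenic share stood close to the background. Support by 2 replicates was found for 129 peaks, by 1 for 89 and by none for 10. Replicates 1, 2 and 3 supported 76.8%, 75.3% and 76.2% of the intergenic peaks (76.1% ± 0.747, SD, n = 3), against 77.9%, 79.3% and 75.8% of the 719 intronic peaks over 2000 bp from a TSS (77.7% ± 1.75). The difference of -1.55 percentage points was within the spread between replicates (exact two-sided permutation test over 3 against 3 values, p = 0.300, Benjamini-Hochberg adjusted p = 0.600 over 2 tests; this design cannot go below 0.10). For the 2135 promoter peaks within 500 bp of a TSS the values were 78.8%, 77.1% and 72.6% (76.2% ± 3.23), and the intergenic values lay inside their range (difference -0.0600 points, exact permutation p = 1.00, adjusted p = 1.00). The optimal list was itself derived from these libraries, so support is a description of recurrence and no independent check. Read at their full length of 30000 peaks, the replicate lists held a summit within 100 bp of 97.7%, 96.2% and 95.3% of the intergenic peaks.

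Recurrence of the intergenic peaks fell with rank, as it did over all optimal peaks. Among the first 1000 ranks, 110 of 114 intergenic peaks had support from all 3 replicates (96.5%, and 96.5% of all optimal peaks there). The share was 72.0% of 125 peaks at ranks 1001 to 2000 (72.7% of all), 32.7% of 113 peaks at ranks 2001 to 3000 (24.4% of all) and 4.24% of 118 peaks beyond (2.51% of all). The first 53 intergenic peaks by signal all had full support; the first without it was the 54th, at rank 475. The median rank of the intergenic peaks was 1951 (quartiles 1025 and 3000), against 1958 for all optimal peaks. Spearman's rho of the ranks over the intergenic peaks, given as a description of peaks that share the same libraries, was 0.714 for replicates 1 and 2 (n = 444), 0.531 for replicates 1 and 3 (n = 438) and 0.558 for replicates 2 and 3 (n = 431).

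**Figure D1:**
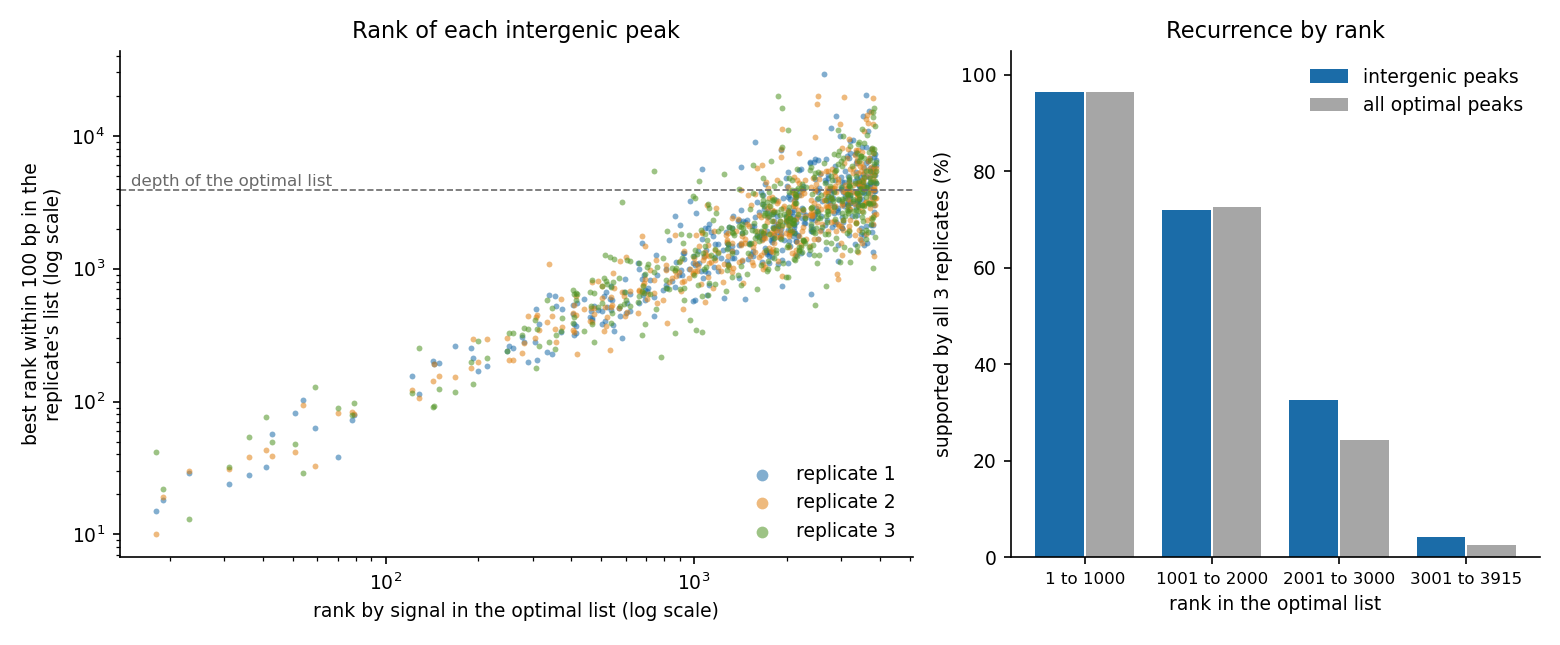
Left, rank of each intergenic peak in the optimal list (x axis, log scale) against its best rank within 100 bp in each replicate's list (y axis, log scale; 1 point per peak and replicate; dashed line, depth of the optimal list). Right, percent of intergenic peaks (blue) and of all optimal peaks (grey) supported by all 3 replicates, by rank: both start at 96.5% and end at 4.24% and 2.51%.

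Of the 10 peaks with no support, the 3 of highest signal lay 1433 bp upstream of Rh5, a rhodopsin gene (rank 1920), 1960 bp upstream of mtSSB, which encodes the mitochondrial single-stranded DNA-binding protein (rank 2471), and 1577 bp upstream of ab (abrupt), a BTB zinc finger factor (rank 2763). The peak at Rh5 had rank 7842 in replicate 1, 7888 in replicate 2 and no summit within 100 bp in replicate 3. The lowest peaks that all 3 replicates still supported had ranks 3035, 3122, 3158, 3192 and 3393. They lay 2351 bp upstream of srp, the GATA factor of blood and fat body, 15886 bp upstream of CG4704, 1920 bp upstream of LPCAT at the full CRE, 2165 bp upstream of tara (taranis, a trithorax-group gene), and 1273 bp downstream of the start of CG46443. The peak with the full CRE had ranks 3560, 3331 and 3623 in replicates 1, 2 and 3.

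Intergenic peaks lay closer to genes than intergenic sequence does as a whole. Their median distance to the nearest protein-coding TSS was 3649 bp (quartiles 1545 and 8910, range 502 to 60320). The background is every 100th base of intergenic sequence over 500 bp from a TSS, 399078 points in all, and its median was 8453 bp. A narrower background, added after the data were seen, kept the 282343 points between the first and last optimal peak of each chromosome arm whose window was soft-masked over at most 50% of its bases; its median was 5776 bp. Among the 3915 highest-signal peaks of replicates 1, 2 and 3, the intergenic ones had medians of 3391, 3644 and 3972 bp, all below both backgrounds. Summits at most 1000 bp from a TSS made up 14.7% of the intergenic peaks, against 5.68% of the background and 7.31% of the narrower one. Summits over 10 kb away made up 22.8%, against 45.2% and 31.6%. The rule itself removes everything within 500 bp, and peaks stood close to that limit on either side. Just inside lay the peaks upstream of the Notch-pathway gene E(spl)m2-BFM (502 bp, rank 2020), of CG17896 (504 bp, rank 59) and of Sqor (508 bp, rank 1079). Just outside lay those upstream of CG9706 (488 bp), CG6602 (487 bp) and tej (487 bp), with ranks 2489, 3720 and 2385.

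**Figure D2:**
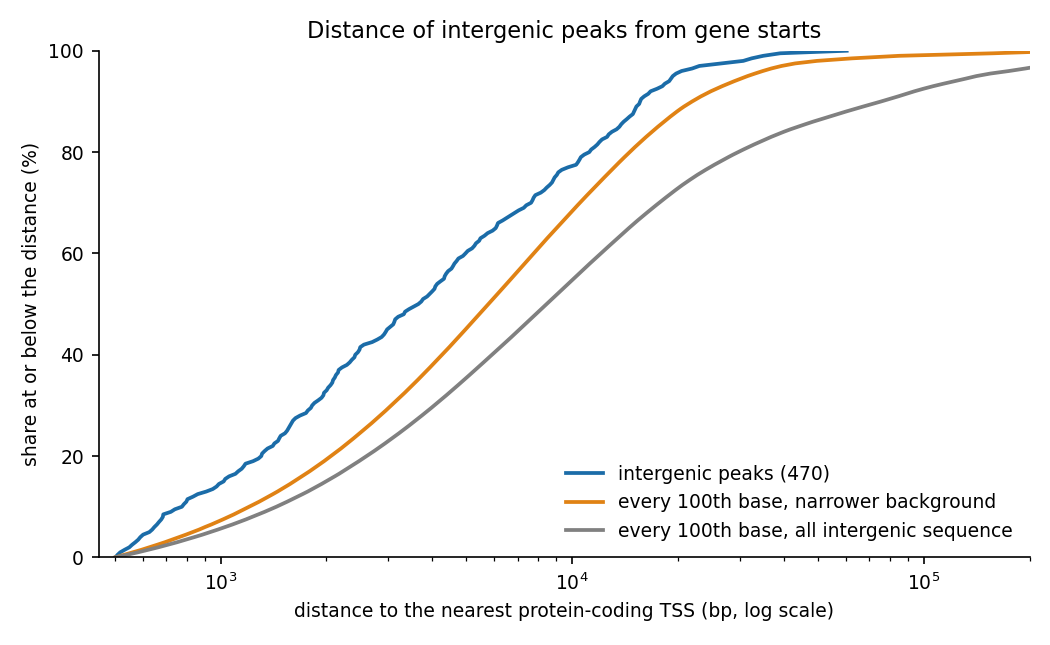
Cumulative share (y axis, percent) of the 470 intergenic peaks (blue) and of every 100th base of the narrower (orange) and the full (grey) intergenic background by distance to the nearest protein-coding TSS (x axis, bp, log scale). The curve of the peaks lies left of both backgrounds, with medians of 3649, 5776 and 8453 bp.

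The peaks were also placed by the side of the genes next to them. Measured to the gene with the nearest TSS, 302 peaks (64.3%, interval 59.8% to 68.5%) lay upstream of the start and 168 (35.7%) downstream of it. Upstream points made up 59.3% of the background and 60.3% of the narrower one; since transcripts are left out by the rule, intergenic points near a start are mostly upstream of it. Of all 470, 165 (35.1%, interval 30.9% to 39.5%) lay between a pair of genes that both start toward the peak, against 23.8% of the background and 26.5% of the narrower one. The highest-signal lists of replicates 1, 2 and 3 gave 34.9%, 36.0% and 34.1% (35.0% ± 0.988, SD, n = 3). Peaks upstream of one gene and downstream of the other numbered 207 (44.0%, against 49.7% and 51.4%), and peaks downstream of both numbered 98 (20.9%, against 21.9% and 22.2%). The peak at NimC3 and hll belongs to the first kind, 3872 bp upstream of NimC3 and 2921 bp upstream of hll. The peak between blw, the ATP synthase alpha subunit, and CycB, the mitotic cyclin B, belongs to the last (rank 36; ranks 28, 38 and 54 in replicates 1, 2 and 3), 785 and 556 bp past their 3′ ends. Across all peaks, the nearer gene edge lay a median of 2314 bp away and the farther one 11151 bp.

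The 20 intergenic peaks of highest signal lay next to genes of several kinds, and all 20 were supported by all 3 replicates. Beside regulators of transcription, they included peaks 3176 and 1149 bp upstream of tara (ranks 41 and 143), 4212 bp upstream of Psc, a subunit of a Polycomb repressive complex (rank 54), 3901 bp upstream of the zinc finger homeodomain gene zfh2 (rank 128), 12558 bp upstream of chinmo, a BTB zinc finger factor of neuronal temporal identity (rank 144), 3321 bp upstream of foxo, the forkhead factor of insulin signalling (rank 149), and 686 bp upstream of nej, which encodes CBP (rank 168). Another, between the homeobox gene C15 and sp3, lay 578 bp upstream of sp3 (rank 122). Beside genes of metabolism and respiration lay peaks 1572 bp upstream of the aldehyde dehydrogenase gene Aldh-III (rank 70), 211 bp past the 3′ end of the cytochrome P450 gene Cyp9f2 (rank 78), and between COX7AL2 and CG31668 (rank 79). The peak at rank 70 stood in a gap of 1690 bp, nearer to the 3′ end of its other neighbour, wech. One peak lay 5740 bp upstream of eEF1gamma, a translation elongation factor, and 10299 bp upstream of Cyt-c1L (rank 43). The rest of the 20 were the peaks named above, a second peak between CG4004 and Paics (rank 51), the peak 504 bp upstream of CG17896 (rank 59), and a peak 51 bp past the 3′ end of CG11349 (rank 189). Ranks of these 20 in single replicates ran from 10 to 260.

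Genes of the CREB and cAMP pathway flanked 7 of the 470 peaks (1.49%, interval 0.723% to 3.04%), against 0.606% of the background and 0.804% of the narrower one. The peak upstream of nej had ranks 260, 152 and 117 in replicates 1, 2 and 3, and its other neighbour, 6434 bp away, is the head gap gene btd. Crtc, which encodes the CREB-regulated coactivator, had 3 peaks past its 3′ end, at 453, 1223 and 3643 bp, with ranks 2905, 418 and 1922. Of these, the one at 1223 bp was supported by all 3 replicates, with ranks 549, 228 and 648. A peak 6111 bp upstream of Ac76E, an adenylyl cyclase, had rank 1397 and no summit within 100 bp in replicate 3. Peaks 20126 bp past the 3′ end of dnc, the cAMP phosphodiesterase (rank 1465), and 21634 bp past that of Pka-C1, the catalytic subunit of protein kinase A (rank 2113), had a nearer TSS of another gene, Myc at 9266 bp and CG33299 at 4081 bp. Among the 7, nej alone was the gene with the nearest TSS. No intergenic peak had a circadian clock gene as a neighbour (0 of 470, Wilson upper bound 0.811%), against 0.163% of the background.

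The list of chromatin regulators had the highest ratio of peaks to background among the 14 gene lists. Its genes flanked 10 peaks (2.13%, interval 1.16% to 3.87%), against 0.227% of the background and 0.289% of the narrower one, and 5 of the 10 had support from all 3 replicates. The list is partial: it lacks the trithorax-group gene tara, whose gap with mtSSB held 7 peaks. The lists describe flanking genes only, and neighbouring peaks share a locus: 8 of the 10 lay around Psc and Su(z)2, closely spaced Polycomb genes on chromosome 2R. Psc had 5 of them, at ranks 54, 405, 522, 1325 and 1424, and Su(z)2 had 3, at ranks 19, 2076 and 3524. For several of them another gene had the nearest TSS. It was CG13321 at ranks 405 and 1424, CG33798 at ranks 522 and 1325, and CG13323 at rank 19. The peak 4212 bp upstream of Psc had ranks 102, 94 and 29 in replicates 1, 2 and 3. The remaining peaks lay between lola and psq, BTB factors (rank 2668), and 778 bp upstream of ph-d, next to its duplicate ph-p (rank 1062). Counting the gene with the nearest TSS only, the list's share was 1.06%, and no background share was computed for that count.

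The listed developmental transcription factors flanked intergenic peaks at rates close to those of the narrower background. The lists are partial: chinmo, noc, zfh2, C15 and mirr, which also flanked intergenic peaks, are in none of them. Segmentation and body patterning genes flanked 19 peaks (4.04%, against 2.52% and 3.45%), of which 6 had full support. The one of highest signal there, after that at btd, lay 4326 bp upstream of slp2 (rank 248; ranks 239, 300 and 239 in replicates 1, 2 and 3). The gene hry (hairy), a pair-rule repressor, had 6 of the 19, at ranks 1689 to 3497. Organ and tissue factors flanked 26 peaks (5.53%, against 3.61% and 4.82%). Among them were Optix, an eye factor (rank 408), SoxN, a Sox factor of the nervous system (rank 415), and D and Sox21b, which share 1 peak at rank 520. A gene of this list had the nearest TSS for 11 of the 26 (2.34%). For the peaks at ranks 408 and 415 the nearest TSS was that of CG14762 (651 bp) and of CG32986 (16669 bp). Hox genes and cofactors flanked 7 peaks (1.49%, against 0.855% and 1.18%), and 1 of these, 8334 bp past the 3′ end of abd-A, had full support (ranks 1773, 1912 and 1803). Stress and immediate early bZIP genes flanked 4 peaks, all with full support (0.851%, against 0.410% and 0.549%). They were Atf3 with a peak 1898 bp upstream (ranks 316, 336 and 646) and slbo, the fly C/EBP, with 3 past its 3′ end at ranks 282, 304 and 2112. The peak at Atf3 had rank 409 in the optimal list. Of all optimal peaks, 96.5% at ranks 1 to 1000 and 24.4% at ranks 2001 to 3000 had full support. The peak at rank 2112 lay 12018 bp past slbo, and the gene with the nearest TSS was betaTub60D.

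Background points fell in 5237 gaps between protein-coding genes, and 324 gaps held an intergenic peak (6.19% of that number). Gaps without a background point, such as short ones near gene starts, are not in the 5237. Of the 324 gaps, 251 held exactly 1 peak, so 251 of the 470 peaks stood alone in their gap. The 34 gaps with 3 or more held 141 peaks (30.0%), and they differed in length, from the 4172 bp between CG7484 and Crtc with 3 peaks and the 5886 bp between Hacd1 and Rh5 with 5 to the longer gaps below. No count expected from gap length was computed. The gap of 37097 bp between RFeSP, the Rieske subunit of respiratory complex III, and chinmo held 11 peaks, of which 8 had full support. Its 2 highest-signal summits stood 12558 and 7831 bp upstream of chinmo, with ranks 191, 191 and 93 and ranks 211, 296 and 135 in replicates 1, 2 and 3. The gap of 20400 bp between mtSSB and tara held 7 peaks, and the 3 with full support were the 3 nearest to tara. The gap of 75047 bp between NijA and CG43245 held 5 peaks, all with full support (best rank 308). That of 27292 bp between CG44362 and CG7560 held 5, of which 2 had full support (best rank 357). Over all intergenic peaks, the next optimal peak of any kind was a median of 5240 bp away, and 127 peaks (27.0%) had one within 2000 bp.

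**Figure D3:**
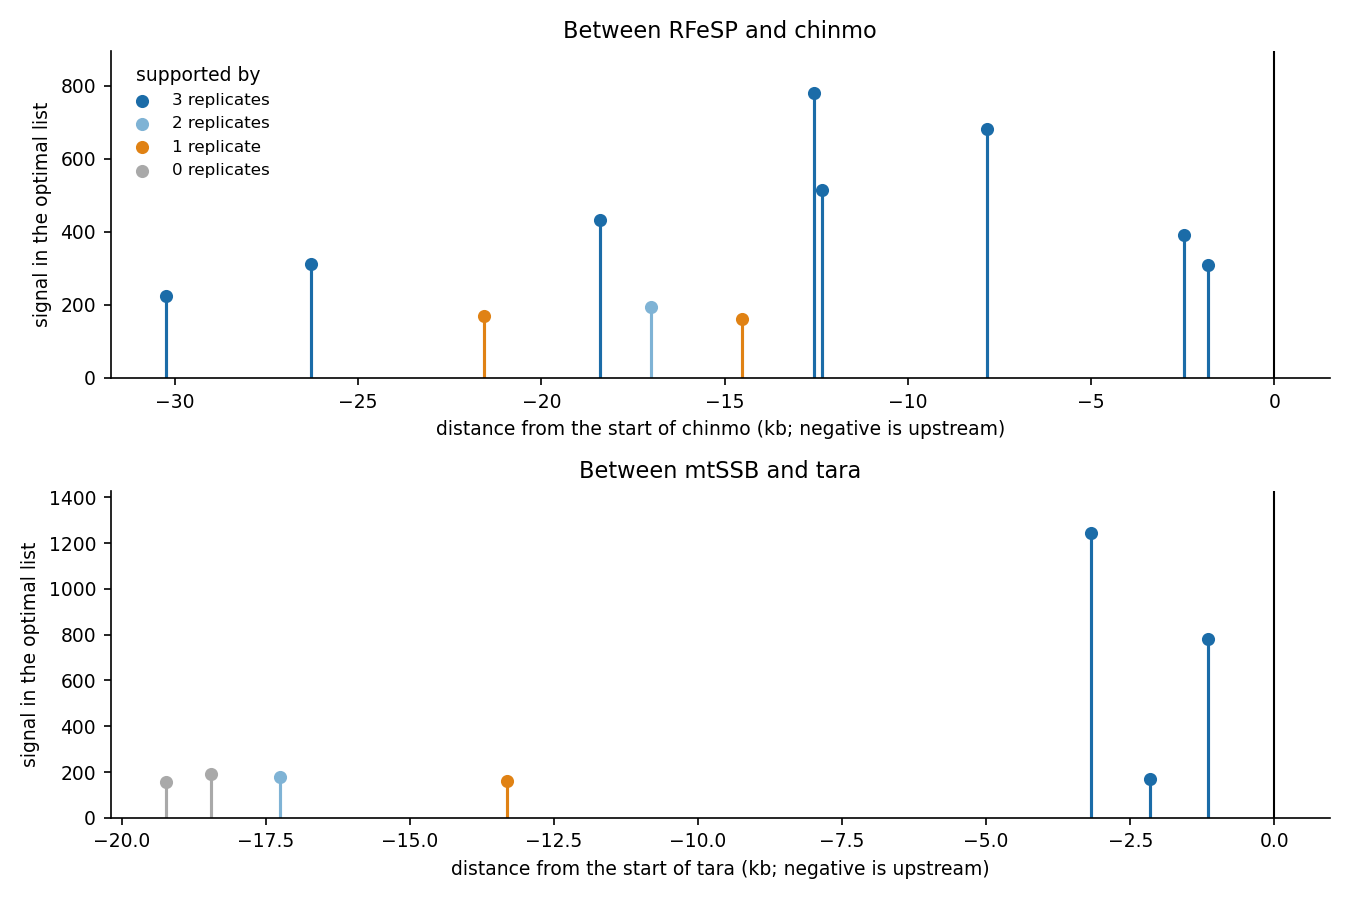
Signal in the optimal list (y axis, caller's units with no stated scale) of the intergenic peaks between RFeSP and chinmo (top, 11 peaks) and between mtSSB and tara (bottom, 7 peaks) by distance from the start of chinmo or tara (x axis, kb). Colours give the number of supporting replicates; the 3 peaks nearest to tara have the support of all 3.

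The 5 peaks farthest from any TSS had ranks between 1431 and 3847. The farthest summit lay 60320 bp from the start of Prat2, an enzyme of purine synthesis, between it and the POU factor vvl (rank 1848; ranks 3288, 1945 and 1320 in replicates 1, 2 and 3). Next came a summit 59512 bp from Cyp12e1 and 13260 bp past the 3′ end of hth, a Hox cofactor (rank 3847, supported by 2 replicates). The others lay 40316 bp upstream of mirr, between the Iroquois homeobox genes caup and mirr (rank 1431), 36610 bp upstream of CG43245 (rank 2275), and 35695 bp from CG31797 beside drl, a Ryk-type receptor (rank 2096). Of these 5, all but the one at hth had full support.

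Non-coding genes held intergenic summits more often than the background did. A summit inside a non-coding gene was found for 69 peaks (14.7%, interval 11.8% to 18.2%), against 7.20% of the background and 8.77% of the narrower one. The replicates' own highest-signal intergenic peaks gave 15.5% ± 0.528 (SD, n = 3). Long non-coding RNA (lncRNA) genes accounted for 63 of the 69 (13.4% of the peaks, against 6.31% and 7.90%). Starts of non-coding genes lay within 500 bp of 70 summits (14.9%, against 4.03% and 5.15%), and those of lncRNA genes of 52 (11.1%, against 2.96% and 3.97%). In the strongest case the summit between NimC3 and hll lay 19 bp inside the start of lncRNA:CR31840 (rank 18). The next were 1423 bp into lncRNA:Vinr (rank 23) and 509 bp into lncRNA:CR44619 (rank 51), overlapping lncRNA genes on the same strand between CG4004 and Paics. The heat-inducible lncRNA gene Hsromega held 2 summits, at ranks 543 and 810.

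Few summits lay in small RNA genes, which also cover little intergenic sequence. The summit at rank 739 lay in snRNA:7SKa, a gene of the 7SK RNA that restrains the elongation factor P-TEFb, and the summit at rank 1111 lay in snoRNA:Psi18S-176, 21 bp from its start. Each class held 1 of 470 summits (0.213%, interval 0.0376% to 1.20%), against 0.00576% of the background for snRNA and 0.0120% for snoRNA genes. Starts of snoRNA genes lay within 500 bp of 5 summits (1.06%, against 0.0546%), and those of snRNA genes of 2 (0.426%, against 0.0238%). Antisense RNA genes held 4 summits (0.851%, against 0.229% of the background and 0.290% of the narrower one), of which asRNA:CR45281 (rank 1461), asRNA:CR43957 (rank 1661) and asRNA:CR43964 (rank 1871) had the highest signal. No summit lay in a microRNA, tRNA, rRNA or pseudogene (0 of 470 for each, Wilson upper bound 0.811%). These classes held 0.0185%, 0.0263%, 0.0471% and 0.545% of the background, in that order. Annotated transposable elements held 2 summits (0.426%), against 10.5% of the background and 4.93% of the narrower one, namely an INE-1 copy (rank 720) and a Tc1 copy (rank 2780). Reads from repeated copies may not map uniquely, and the sources used here do not give how the authors treated them.

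The full CRE was rare both at intergenic summits and in the background. It was found, on either strand, within 100 bp of 1 of 470 summits (0.213%, interval 0.0376% to 1.20%), against 5 of the windows centred 1000 bp to the right (1.06%) and 0.299% of the background windows. The narrower background had 0.244%, and all optimal peaks had 0.587%. In the replicates' own lists the share was 0.421%, 0.440% and 0.403% at the summit, against 0.632%, 0.879% and 0.605% at 1000 bp (exact two-sided permutation test, p = 0.10, the smallest that 3 against 3 values allow; adjusted p = 0.275 over 22 motifs). The summit shares in the replicates' own lists stood above both backgrounds. All of these shares rest on few sites: with a window of 250 bp the full-list difference turned to 0.213 points higher at the summit, and with the TSS limit at 1000 bp it was 0. The shorter core TGACG stood at 14.3% of summits, against 17.7% at 1000 bp and 16.7% of the background.

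Motifs of other factors were tallied in the same way for 22 motifs, the CRE forms included, each on both strands. In 8 of them the 3 replicate shares at the summit did not overlap those at 1000 bp, 3 being higher and 5 lower at the summit, each with the same exact permutation p = 0.10 and adjusted p = 0.275, so none passed a threshold of 0.05. The E-box CATATG (Twist-type) was within 100 bp of 10% of summits, against 4.26% at 1000 bp and 5.84% of the background (replicates 10.5%, 10.3% and 10.1%, against 5.68%, 5.71% and 6.05%). The GATA site TGATAAG was at 6.81%, against 2.55% and 2.53% (replicates 6.53%, 7.03% and 4.64%, against 2.53%, 2.20% and 3.02%). The CTCF core GGTGGCGC was at 2.13% (10 peaks), against 0.426% and 0.413% (replicates 2.74%, 2.20% and 2.62%, against 0.632%, 0.879% and 0.202%). The STAT site TTCNNNGAA was lower at the summit, at 3.62%, against 7.45% and 6.14% (replicates 5.05%, 3.96% and 3.02%, against 6.95%, 6.59% and 6.25%). Intronic peaks over 2000 bp from a TSS had CTCF cores at 0%, 0.139% and 0.558% in the same replicates, below the intergenic values without overlap (exact permutation p = 0.10, adjusted p = 0.244 over 22 motifs). CATATG had 9.77%, 9.62% and 8.65% there, also below the intergenic values (p = 0.10 and adjusted p = 0.244 in the same exact test). DRE (TATCGATA), the M1BP site GGTCACAC and TCGATCGA, a shuffled CRE, were also higher at intergenic than at these intronic peaks, without overlap. The full CRE (0.902%, 0.976% and 0.558% at these intronic peaks), GAGAGAG, TGATGCAA and the STAT site were lower without overlap. Each of these had the same p and adjusted p in that exact test. The GATA site had 7.52%, 6.69% and 5.86% there, overlapping the intergenic values (exact permutation p = 0.600, adjusted p = 0.776). The intronic class begins beyond 2000 bp, whereas CTCF-core intergenic peaks at ranks 31, 259, 408, 1079 and 1086 lay nearer. They stood 761, 555, 651, 508 and 600 bp upstream of a TSS, and the rest with that core at 2681 bp or farther. Intronic peaks at 2000 bp or nearer were not compared. For the 470 peaks, windows 1000 bp to the left held CATATG at 5.53% and the GATA site at 4.47%. The CTCF core was at 0.851% and the STAT site at 7.45% in these left windows. A match is a run of letters, and binding by the named factor was not measured.

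**Figure D4:**
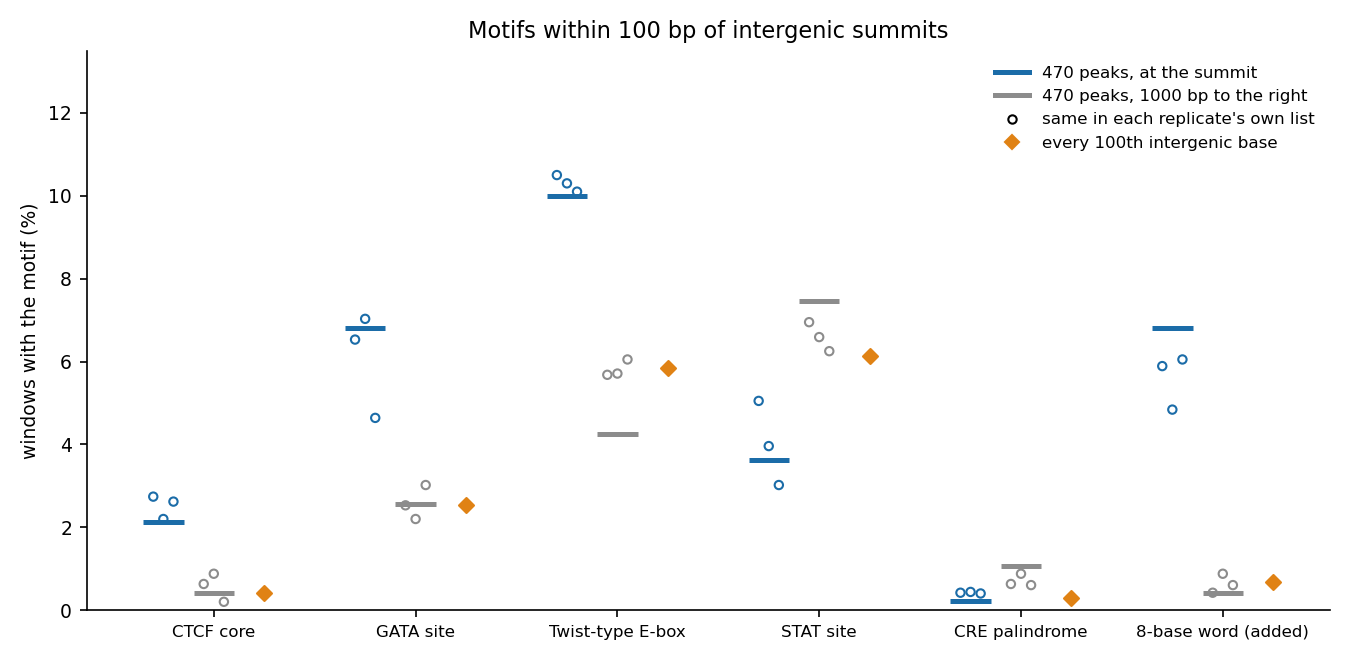
Percent of windows of 100 bp on each side (y axis) that hold each of 6 motifs (x axis): at the summits of the 470 intergenic peaks (blue lines), 1000 bp to the right (grey lines), in each replicate's own list (open circles in the same colours) and at every 100th intergenic base (orange diamonds). The CTCF core stands at 2.13% of summits, against 0.426% at 1000 bp.

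Counted in bins of 100 bp out to 1000 bp, the motifs differed in how closely they kept to the summit. The CTCF core was in 6 and 4 peaks in the bins left and right of the summit, against a mean of 2.89 and a highest count of 6 in the 18 other bins. Within 50 bp it was at 1.70% of summits, against 0 of the windows at 1000 bp, and the median distance of its 10 sites from the summit was 30.0 bp. CATATG was in 25 and 22 peaks, against a mean of 16.8 and a highest count of 26. The GATA site was in 16 and 19, above each of the 18 other bins (mean 9.67, highest 14). The STAT site was in 11 and 8, against a mean of 16.6.

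Of all 8-base words, CACTGAGA had the highest count at the summit over that in distant windows, and it was picked for that, so its values are a description with no test. It was within 100 bp of 32 summits (6.81%, 34 sites), against 0.426% of windows at 1000 bp, 0.675% of the background and 0.826% of the narrower one. Shares elsewhere were 2.92% at intronic peaks over 2000 bp from a TSS, 1.55% at promoter peaks, and 2.23% at intergenic peaks of the pooled list below the optimal ones. The bins next to the summit held it in 16 and 18 peaks, and none of the 18 other bins in more than 5. The median distance of the 34 sites from the summit was 68.0 bp. Peaks with the word were mostly weak: 9 were among the upper and 23 among the lower 235 by signal, and their median rank was 2261. Of the 32, 19 had full support, the strongest being the peak between slp1 and slp2 printed above and the peak between CG9300 and Shal (ranks 622, 354 and 250 in replicates 1, 2 and 3). Full support was found for 51.5% of all intergenic peaks. The word was at 7.85% of the intergenic peaks with full support, close to the 6.81% of all. Of the 34 sites, 19 lay wholly in soft-masked (lower-case) sequence of the assembly, which marks repeats and low-complexity runs; the part of such sequence in the result was not tested.

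**Figure D5:**
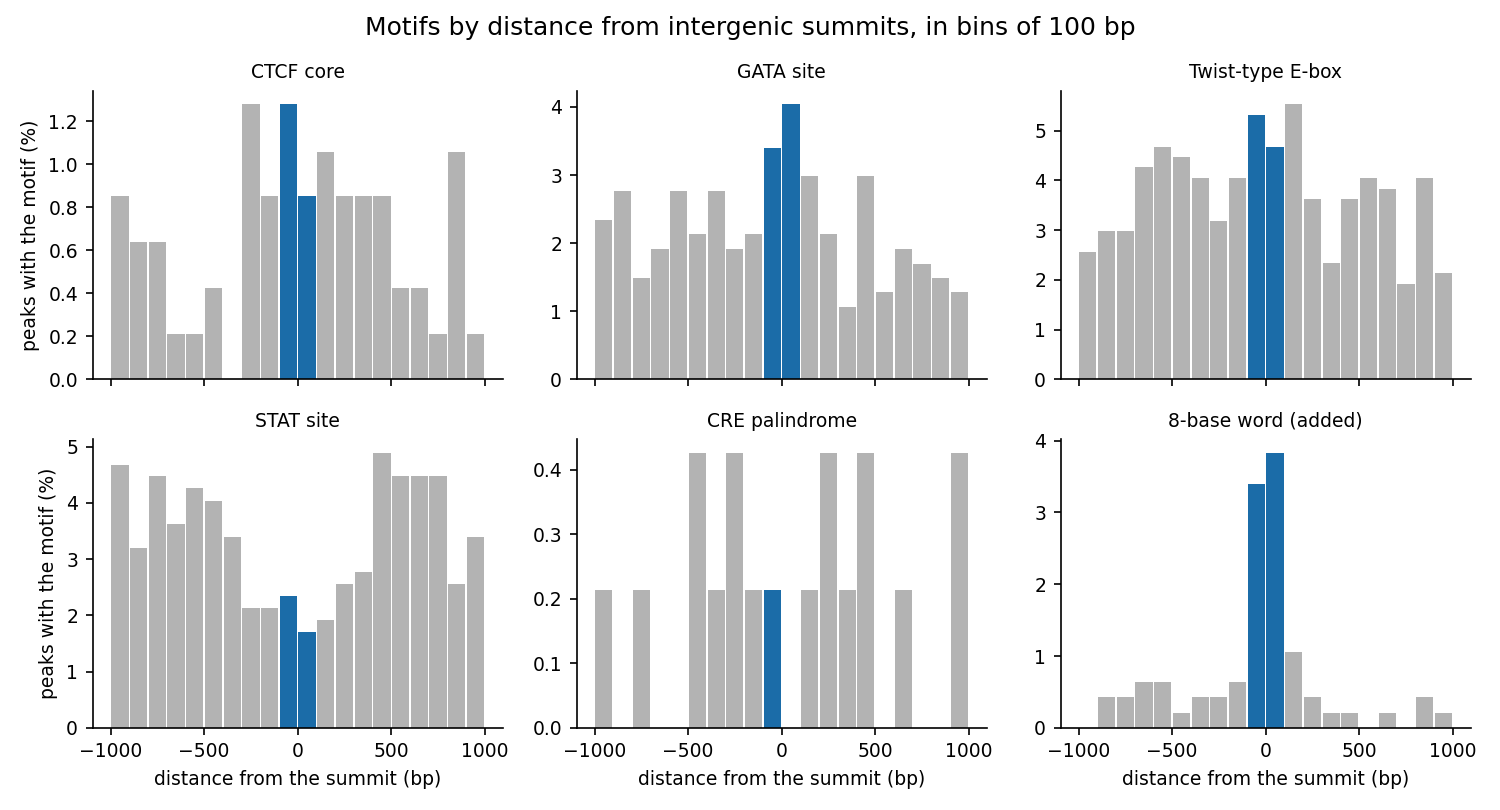
Percent of the 470 intergenic peaks (y axis) with each of 6 motifs in bins of 100 bp by distance from the summit (x axis, bp; blue, the bins next to the summit; y scales differ). The word labelled as added, CACTGAGA, reaches 3.40% and 3.83% in the central bins, whereas CTCF cores and CATATG also occur at similar rates in bins beyond.

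Summit windows held less G and C than their surroundings and fewer soft-masked bases than the background. Windows of 100 bp on each side of the summit had a mean of 38.4% G and C, against 40.8% both at 1000 bp and in the background. Soft-masked bases made up 19.4% of the summit windows, against 17.2% at 1000 bp and 26.2% of the background.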

How the data were processed

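Per the labels and companion text, the authors called peaks on dm6 for each of 3 ChIP replicates against a control, and for their pool, and derived the optimal list by an IDR threshold. The sources used here name no aligner or caller. The deposited lists give each peak a signal value of unstated scale, used for ranks only, and a −log10 q-value, of which the authors state no more; each replicate list holds 30000 peaks. Depth is unknown. Summits were placed on Ensembl release 115 gene models (13945 protein-coding genes, 19607 TSSs).

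Shares carry 95% Wilson intervals. Backgrounds enumerate every 100th base; the narrower one was added after the data were seen. The exact permutation test compared 3 replicate values with 3, without tests over peaks. It was also computed for CACAGTG, but that word came from earlier results of these data. Its p-value is therefore not used, and it stands outside the 22 motifs. The members, gene lists and motifs were chosen with earlier results of these data known; CACTGAGA and TACACTG were picked from 7-, 8- and 10-base words ranked by count at the summits minus the mean at 1000 and 2000 bp. Named peaks are the 20 of highest signal, those with the full CRE, the 5 farthest, 3 on each side of the 500 bp limit, the 5 fullest gaps, the top 3 per non-coding class, extremes of support, and up to 4 genes per list (all for CREB and clock genes); those named beyond this were chosen after their values were seen. One of the fullest gaps is not reported here. Of the listed symbols, 10 matched by synonym and 4 had no match. Matching, annotation, motif and permutation steps were tested on simulated data. Python 3.11.15, numpy 2.4.6, pandas 2.3.3 and scipy 1.17.1 were used.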

Additional observations from a re-analysis of the deposited data

How the results depend on the processing

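The count of 470 was 573 with the TSS limit at 250 bp and 401 at 1000 bp, 235 in the upper 50% of the optimal list by signal, and 276 to 294 with 1 replicate left out, where only peaks supported by the other two were kept. The share with full support was 38.7% with summits within 50 bp, 27.4% with replicate lists read to 50% of that depth, 81.1% at 2 times the depth, 90.2% with full lists, and 58.7% to 62.6% with 1 replicate left out. All optimal peaks moved alike (37.4%, 28.2%, 78% and 88.6% in the first 4 settings). The median rank was 1248 to 1324 with 1 replicate left out, since only recurring peaks were then kept. The median TSS distance was 2363 bp and 4538 bp with the TSS limit at 250 and 1000 bp, 3984 bp for peaks with full support, and 3665 to 3990 bp with 1 replicate left out. The share between genes that both start toward the peak was 32.9% to 37.2% over its 6 alternatives. The share inside non-coding genes was 19.8% when an overlap of 1 bp sufficed, 18.2% for peaks with full support and 17.0% to 17.4% with 1 replicate left out. The difference in full CREs, summit minus 1000 bp, was -0.213 points with a window of 50 bp or the distant window to the left, 0.213 with a window of 250 bp, -0.851 among the upper 235 by signal, 0 with the TSS limit at 1000 bp, and -1.02 to -0.702 with 1 replicate left out. CATATG, the GATA site, the CTCF core and CACTGAGA stayed higher at the summit, and the STAT site lower, in all 11 alternatives. With the replicate as a block, added after the data were seen, the differences in support within replicates 1, 2 and 3 were -1.10, -4.00 and 0.400 points against intronic peaks over 2000 bp from a TSS (exact sign-flip p = 0.50; mean of the unblocked comparison -1.55) and -2.0, -1.80 and 3.60 points against promoter peaks (p = 1.00; -0.0600). Over these and the 22 motifs, 9 of 24 blocked comparisons reached the smallest p that 3 pairs allow, 0.25, so none could pass 0.05. Depth is unknown, so peaks absent from a list cannot be told apart from peaks too shallow to be called.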

Other observations

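Other gene groups next to intergenic peaks stood near or below the backgrounds. Axon guidance and adhesion genes flanked 11 peaks (2.34%, against 2.74% of the background and 3.60% of the narrower one), of which 4 were at 18w, a Toll-family receptor, with ranks 2894 to 3397. Signalling ligands and receptors flanked 6 peaks (1.28%, against 1.22% and 1.64%). The strongest of these lay 5275 bp upstream of ptc, the Hedgehog receptor, with ranks 893, 782 and 656 in replicates 1, 2 and 3. Synaptic genes flanked 4 peaks (0.851%, against 0.882% and 1.18%), among them the peak at Shal and one 4172 bp past the 3′ end of ple, which encodes tyrosine hydroxylase (rank 677). Nuclear receptor genes flanked 3 peaks, 2 of them at Hr51 (0.638%, against 0.622% and 0.848%). Cuticle protein genes flanked 1 peak (0.213%, against 0.747% and 1.02%), and muscle genes flanked 1, at Zasp52 (rank 513; 0.213%, against 0.398% and 0.526%). Ribosomal protein genes flanked 4 peaks (0.851%, against 1.49% and 0.790%).

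A further word chosen after its counts were seen, TACACTG, was within 100 bp of 10.9% of intergenic summits, against 1.91% of windows at 1000 bp and 1.89% of the background. It was at 6.82% of intronic peaks over 2000 bp from a TSS, 3.61% of promoter peaks and 5.42% of all optimal peaks. It shares the letters CACTG with CACTGAGA, and the joined form TACACTGA was at 22 summits, against a mean of 2.5 in distant windows. CACAGTG, taken from earlier results of these data, was at 5.11% of summits, against 2.77% at 1000 bp and 2.09% of the background. Other classes held CACAGTG more often: 6.95% of intronic peaks over 2000 bp from a TSS and 5.53% of promoter peaks. All optimal peaks had 6.36%. DRE, the site of DREF, was at 0.426% of intergenic summits, against 6.93% of promoter peaks.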
